A study of Mus musculus with 2 samples.

Results

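Keratin (Krt) and keratin-associated protein (Krtap) genes were examined for CTCF binding in newborn mouse kidney. The members are the protein-coding genes whose GENCODE symbol is Krt or Krtap followed by a digit, and 110 of 21755 protein-coding genes met that rule (53 Krt and 57 Krtap). CTCF was immunoprecipitated from kidney tissue of B6NCrl mice on postnatal day 0, and the bound DNA was sequenced in 2 libraries that form 1 group, with no second genotype, treatment or age. The labels number the libraries as biological replicates 1 and 2 but give them the same biosample and donor identifiers, so the spread between them may be technical. The deposited peak lists carry no read counts, so the depth of the libraries is unknown, and they carry no expression values, so the tissue label was not checked against cell type markers.

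CTCF is a zinc-finger protein that binds a long, directional DNA motif. It is known for holding the ends of chromatin loops, most often at pairs of motifs that face each other, and for binding near the borders of chromosomal domains. Keratins are the intermediate filament proteins of epithelial cells, and a filament pairs an acidic type I keratin with a basic type II keratin. In kidney, Krt8 and Krt18 are the usual pair of the tubule and collecting duct epithelium, and Krt7 and Krt19 mark ducts, whereas most other keratins belong to skin, hair and other stratified epithelia. Keratin-associated proteins are small proteins rich in cysteine or in glycine and tyrosine that cross-link keratin filaments in the hair shaft. Both families lie in tandem arrays.

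Results below use the optimal list, the 65482 peaks that passed the authors' reproducibility threshold, of which 65470 lie on chromosomes 1 to 19 and X. A peak's strength is given as its percentile by the authors' signal value, where a high percentile is a strong peak. For each library alone, its 65482 highest-signal peaks out of 300000 listed were used, called its upper set.

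The sequences that carry the promoter and cluster-edge results are shown first: the match at the one keratin promoter whose peak stood at a gene's 5′ end outside coding sequence, and the matches under the strongest edge peaks of 3 clusters. Each is 29 bases of the mm10 reference, 5′ to 3′ on the strand named, with the 19 bases aligned to the CTCF matrix in capitals and the coordinates those of the capitals.
Krt8 promoter, chr15:102004395-102004413, + strand: gtggcTAGACACTAGAGGGCAGGGcctaa
Type I cluster, right flank, chr11:100295494-100295512, - strand: tccgtCTGCCGGCAGGGGGCACTActgcc
Type II cluster, right flank, chr15:102065818-102065836, - strand: ctagaAGGCCACCAGGGGGCAGAGaaggg
Krtap5 cluster, right flank, chr7:142334436-142334454, + strand: gcacaCAGCCACCAGGGGGCGCTCatgca

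CTCF peaks were uncommon at the promoters of both families. A summit lay within 1 kb of an annotated transcription start site (TSS) at 4 of 53 Krt genes (7.55%, 95% Wilson interval 2.97 to 17.9%) and at 0 of 57 Krtap genes (Wilson interval 0 to 6.31%), where 39.4% of all protein-coding genes had one. These intervals cover counting error only. The upper set of replicate 1 gave 4 Krt and 0 Krtap genes (39.1% of all genes), and that of replicate 2 gave 5 and 0 (39.2%). The conservative list gave 4 and 0 (36.6%). With 1 group of samples there is no test between conditions. For comparison, 11 of 1093 olfactory receptor genes (1.01%) and 9 of 78 Cyp2, Cyp3 and Cyp4 genes (11.5%), also tandem families, had a promoter peak.

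Krt8, the type II keratin of simple epithelia (chr15:101996698-102004482, - strand), had the peak closest to a start site. Its summit lay 31 bp from the TSS, in the non-coding part of exon 1, at percentile 66.3 of the optimal list. In the libraries' own lists of 300000 peaks it ranked 22733 in replicate 1 and 21707 in replicate 2. The motif match printed above for this promoter runs in the + direction, against the gene. It was called with the main matrix, learned outside sequence marked as repetitive. A matrix learned from all sequence gave no match at this peak, whereas the edge peaks printed above had one with both.

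The other 3 members with a promoter peak were keratins of stratified epithelia or hair, and each of these peaks was a coding-exon peak as well. Krt78 had a summit 297 bp from its TSS in coding exon 1, at percentile 19.5. Krt79 had one 260 bp from an annotated TSS, and Krt72, a keratin of the inner root sheath of the hair follicle, one 511 bp from an annotated TSS, at percentiles 32.8 and 31.6. The Krt72 and Krt79 summits both fell in coding exon 7, near the start of a shorter transcript rather than the gene's 5′ end. With the gene's 5′ end as the sole start site, 2 Krt genes kept a promoter peak, Krt8 and Krt78, while the share over all genes was 31.3%. With the 50% of optimal peaks that had the highest signal, Krt8 alone remained (all genes 19.8%).

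The weaker part of the library lists added peaks at a number of Krt promoters and at few Krtap promoters. In the whole lists of 300000 peaks, 26 Krt genes had a summit within 1 kb of a TSS in at least 1 library, and 12 had one in both. For Krtap genes the counts were 7 in at least 1 library and 0 in both, against 76.6% and 63.7% of all genes. Krt19, a simple-epithelial keratin, had a summit 959 bp from a TSS in the upper set of replicate 2 and 1.10 kb away in that of replicate 1, and no optimal peak closer than 19.6 kb.

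Krtap promoters were poor in CpG dinucleotides, and Krt promoters lay higher in the ranking. When all 21755 genes were ranked by the CpG observed-to-expected ratio within 500 bp of the 5′ end, 48 of 57 Krtap genes fell in the lowest 3 deciles, which hold 6527 of all genes. Of the 53 Krt genes, 18 fell there, near the share of all genes, and most lay in deciles 3, 4 and 5 (14, 24 and 10 genes). No member fell in deciles 7 to 10. The share of all genes with a promoter peak was 5.65% in the lowest decile, 20.4% in the third, 43.1% in the fifth and 58.6% in the eighth. If each member had a peak at the share of its own decile, 15.2 Krt and 9.43 Krtap genes would have one, against the 4 and 0 counted. The bar chart of promoter peaks by CpG decile shows these values.

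**Figure D1:**
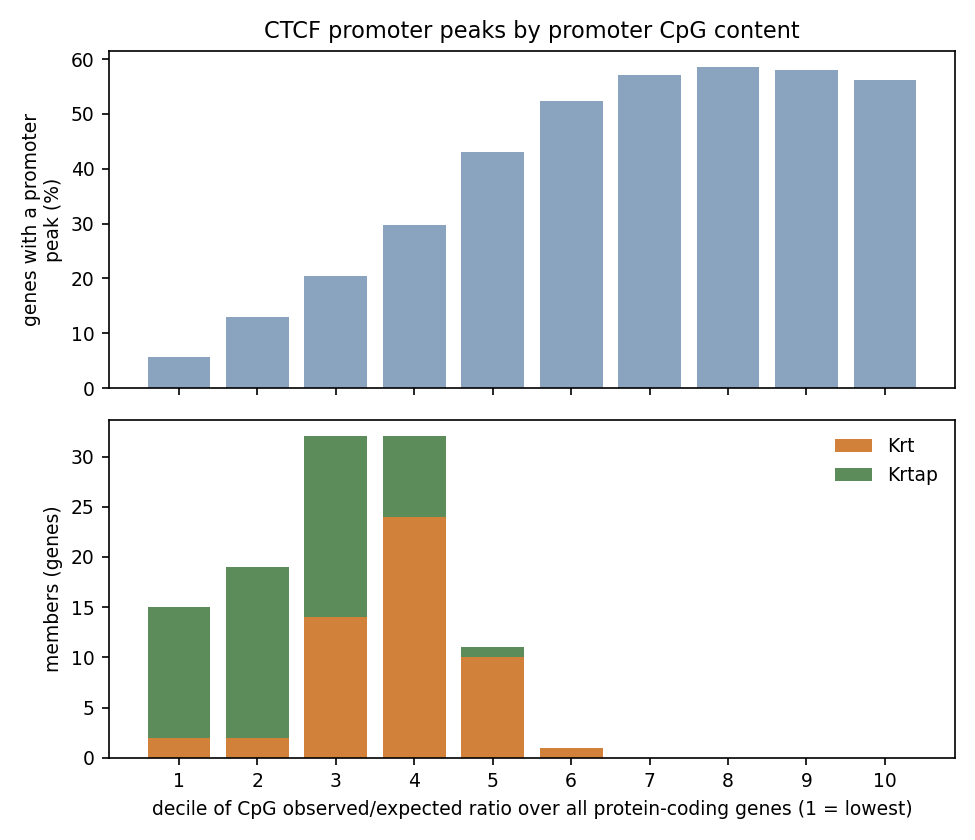
Top, percentage of protein-coding genes with an optimal CTCF summit within 1 kb of a TSS, by decile of promoter CpG observed/expected ratio (1 is the lowest). Bottom, the number of Krt and Krtap genes in each decile. All Krtap genes sit in deciles 1 to 5, and the share of genes with a peak rises from 5.65% in decile 1 to 58.6% in decile 8.

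Distances from start sites to the nearest optimal summit differed between the families. The median distance was 7.76 kb for Krt genes and 19.1 kb for Krtap genes, against 2.52 kb for all genes. A peak lay within 10 kb for 34 of 53 Krt genes (64.2%) and 16 of 57 Krtap genes (28.1%), where 69.6% of all genes had one that close. The medians were 7.20 and 7.07 kb for Krt and 19.1 and 19.3 kb for Krtap genes in the upper sets of replicates 1 and 2.

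Among simple-epithelial keratins, Krt7 had its nearest peak at 1.68 kb, Krt20 at 7.20 kb and Krt18, the type I partner of Krt8, at 9.91 kb. Of the keratins of the basal layer of stratified epithelia, Krt5 had a peak at 3.98 kb, Krt14, its type I partner, at 5.73 kb, and Krt15 at 21.3 kb. Krt15 is a case where the lists differed, since the upper sets placed a summit at 9.09 kb in replicate 1 and 9.23 kb in replicate 2. The suprabasal pair Krt1 and Krt10 had peaks at 9.24 and 6.32 kb. The stress-inducible Krt17 and Krt6a had theirs at 21.2 and 9.95 kb, the hair-shaft keratin Krt31 at 8.52 kb, and the inner root sheath keratin Krt71 at 29.2 kb. Krtap28-10 and Krtap28-13, a pair on chromosome 1 outside the clusters, had peaks at 22.5 and 4.06 kb.

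At the far end of the range, 7 members had no peak within 50 kb of a TSS, and 6 of them were Krtap genes. Krtap20-2 was farthest, at 170 kb (152 kb in replicate 1 and 170 kb in replicate 2), followed by Krtap21-1 at 114 kb. Over 50 kb is not rare in the genome, as 12.1% of all genes are that far from a peak, and 7.98% are over 100 kb away. The one keratin in the set, Krt39 of the hair shaft, was at 53.0 kb in the optimal list but at 26.7 kb in the upper set of replicate 2.

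**Figure D2:**
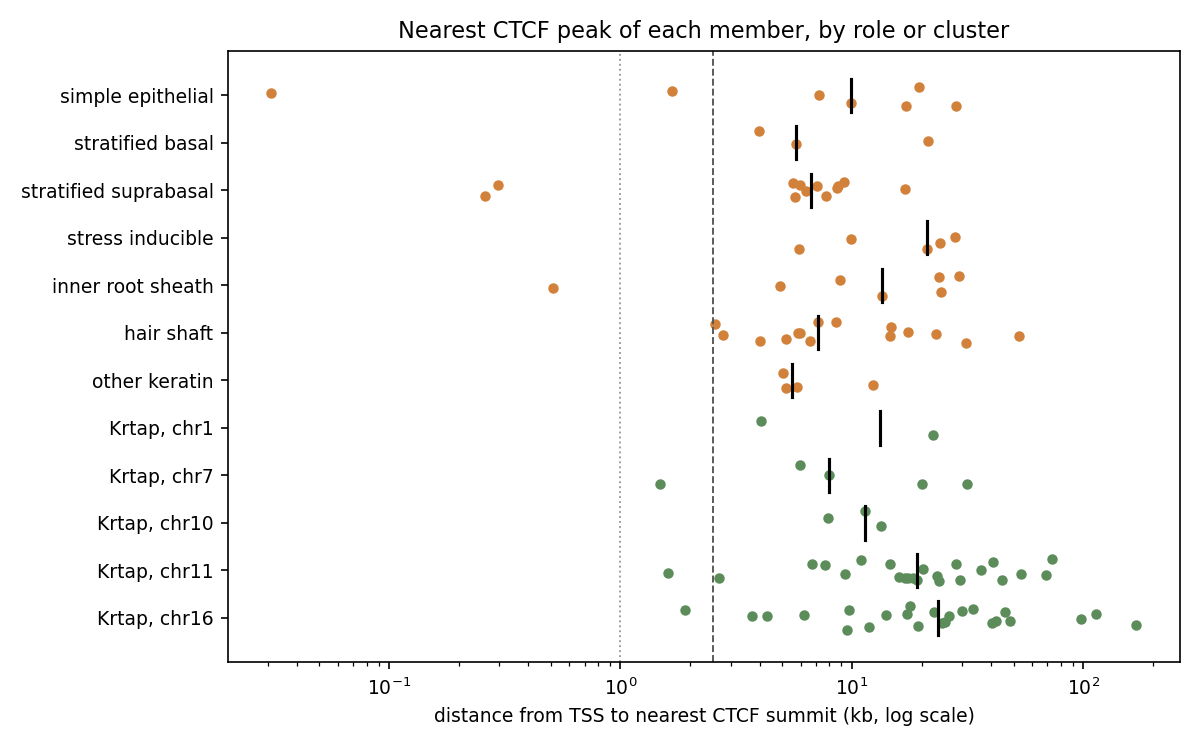
Distance from each member's TSS to the nearest optimal CTCF summit (log scale, kb), with Krt genes grouped by the epithelium they are known from and Krtap genes by chromosome. Each point is a gene and each short bar the group's median, the dashed line marks the median of all protein-coding genes (2.52 kb) and the dotted line 1 kb. Krt8, Krt72, Krt78 and Krt79 are left of the dotted line, and the farthest points belong to Krtap genes on chromosome 16.

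Keratin genes held CTCF peaks in their coding sequence more often than at their promoters. A summit fell in a coding exon of 16 of 53 Krt genes (30.2%, 17 peaks), where 9.23% of all protein-coding genes had one. No Krtap gene had a coding-exon peak, and Krtap genes are short (median 0.892 kb, against 6.59 kb for Krt). Among all 133 peaks of the cluster windows described below, 18 (13.5%) were in coding exons, 17 of them in Krt genes and 1 in Tspear, against 3.38% of all optimal peaks. The exonic peaks were unevenly spread, with 13 of the 26 Krt genes on chromosome 15 and 3 of the 27 on chromosome 11. They were of low to middle strength (median percentile 37.2, range 14.8 to 80.9), 15 of 17 were also in the upper sets of both libraries, and 15 were in the conservative list. A motif match lay within 100 bp of the summit at 7 of the 17. The share was 41.4% for coding-exon peaks of all genes and 61.1% for all optimal peaks.

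The exon that recurred most often was exon 7 of 9 of the type II genes, which held 7 of the 17 peaks. As background, this exon encodes the end of the central rod domain that intermediate filament proteins share. The 7 genes were Krt5 of the basal layer, Krt75, Krt76, Krt77, Krt79, the inner root sheath keratin Krt72 and the hair keratin Krt82. Their percentiles in the optimal list ran from 28.0 to 63.8 with a median of 43.4. In the lists of replicates 1 and 2 they stood at 87.8 and 85.9 for Krt5, 85.2 and 84.3 for Krt72, 92.6 and 91.0 for Krt75, and 84.3 and 84.9 for Krt76. Krt77 stood at 88.8 and 89.2, Krt79 at 86.4 and 79.9, and Krt82 at 87.8 and 83.8. The exon 7 peaks of Krt77 and Krt79 had no motif match. The exon was singled out after the peaks were seen, so its count is a description. Exons of tandem keratin genes are alike in sequence, how reads matching several places were treated is not given here, and the part that such reads play in these peaks was not tested.

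**Figure D3:**
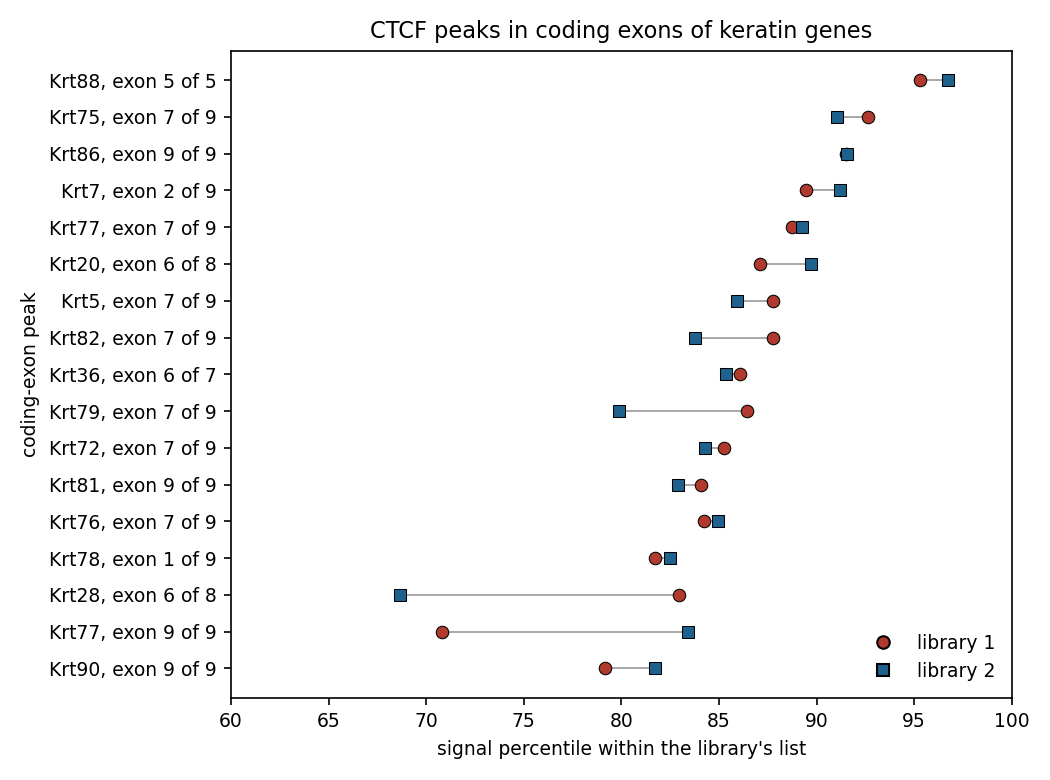
Signal percentile of the 17 coding-exon peaks of Krt genes within each library's list of 300000 peaks, ordered by their percentile in the optimal list (lowest at the bottom). Red circles are library 1 and blue squares library 2, and the axis starts at 60. The peak of Krt88 is at the top, and those of Krt28 and of exon 9 of Krt77 have the libraries farthest apart.

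The other coding-exon peaks lay in exons with other numbers, and 5 of the 17 were in the last exon of their transcript. Exon 9 of 9 held peaks in Krt81, Krt90 and Krt77, at percentiles 28.9, 14.8 and 15.1, none with a match. Krt7, expressed in ducts and other simple epithelia, had one in exon 2 at percentile 55.1. The hair keratin Krt86 also had one in exon 9, at percentile 61.0 with a match antisense to the gene. Krt88 had the strongest of the 17, at percentile 80.9 with no match within 100 bp. On chromosome 11 the exonic peaks were in exon 6 of Krt20, Krt28 and Krt36, at percentiles 44.4, 16.2 and 37.2, and none had a match. Their summits lay 74.3, 71.6 and 82.0% along the coding sequence. The exon 7 peaks of type II genes lay nearby on that scale, at 78.2 to 85.1%.

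Nearly all members, 108 of 110, lie in 5 clusters, defined as runs of at least 3 members with no more than 500 kb between neighbours. The Krtap5 cluster on chromosome 7 (142174535-142304594) holds 5 members, and the Krtap10/12 cluster on chromosome 10 (77720599-77837252) holds 3. The type I cluster on chromosome 11 (99232761-100269871) holds 27 Krt and 23 Krtap genes. The type II cluster on chromosome 15 (101347444-102032027) holds 26 Krt genes, the last of them Krt18, and the cluster from Krtap24-1 to Krtap11-1 on chromosome 16 (88610705-89571183) holds 24 Krtap genes. Other protein-coding genes lie inside the spans as well, 5, 12, 18, 3 and 14 on chromosomes 7, 10, 11, 15 and 16. The cluster ends are thus set by which genes carry a Krt or Krtap symbol.

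The spans plus 50 kb on each side contained 133 optimal peaks, at very different densities. The Krtap5 window had 17 peaks (7.39 per 100 kb), the type II window 50 (6.37), the Krtap10/12 window 12 (5.54), the type I window 42 (3.69) and the chromosome 16 window 12 (1.13). The density over all 20 chromosomes was 2.56 per 100 kb. The counts in the upper sets of replicates 1 and 2 were 17 and 18, 48 and 45, 12 and 9, 41 and 42, and 13 and 14 in the same order. The chromosome 16 window was thus the only one below the genome's density, in the optimal list and in both upper sets. With the 50% of optimal peaks of highest signal, the Krtap10/12 window held 2 peaks (0.923 per 100 kb) and was also below the genome's density, then 1.28, as was the chromosome 16 window (0.754). Against its own chromosome, the type I window (3.69) was below chromosome 11 (4.08) and the chromosome 16 window (1.13) below chromosome 16 (2.23). Of the 133 peaks, 113 (85.0%) overlapped an upper-set peak of both libraries, against 78.6% of all optimal peaks.

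**Figure D4:**
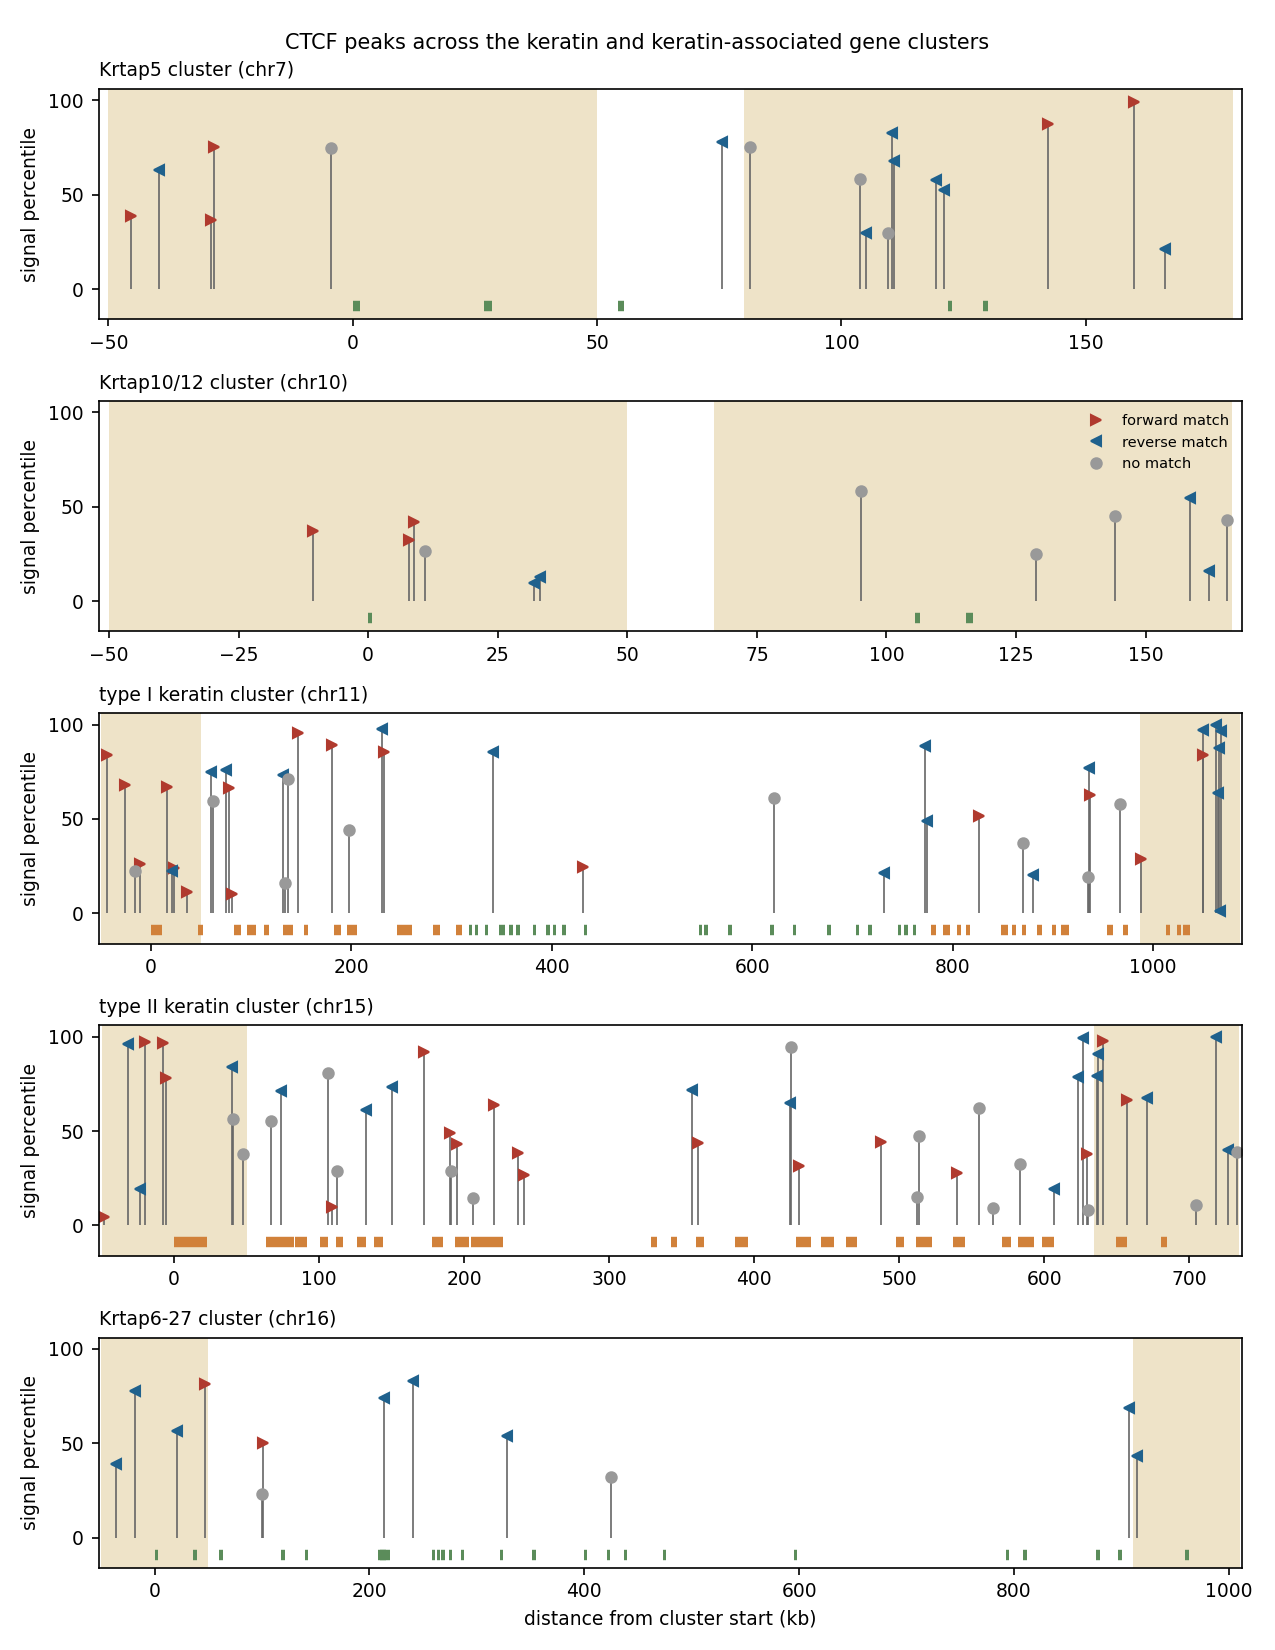
Optimal CTCF summits in the 5 cluster windows, by distance from the cluster start (kb) and signal percentile. Red right-pointing symbols are forward motif matches, blue left-pointing symbols reverse matches and grey circles peaks without a match. Bars under the axis are Krt (orange) and Krtap (green) genes, and shaded zones reach 50 kb to each side of a cluster end. The chromosome 16 cluster has a stretch of 482 kb without a peak, and the strongest peak of the type I window stands at its right end.

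Peaks were denser in the zones around the cluster ends than inside the clusters. In the 10 edge zones, each running from 50 kb outside to 50 kb inside a cluster end, there were 67 peaks in 1000 kb, or 6.70 per 100 kb (exact Poisson 95% interval 5.19 to 8.51). The interiors held 66 peaks in 2429 kb, or 2.72 per 100 kb (2.10 to 3.46), close to the genome's 2.56. The ratio was 2.47, and 2.32 and 2.28 in the upper sets of replicates 1 and 2. It was 1.83 with edge zones of 25 kb on each side and 3.27 without coding-exon peaks, nearly all of which lie in interiors.

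The contrast differed in size between clusters. The ratio of edge to interior density was 3.07 on chromosome 16, 2.88 in the type I cluster and 1.64 in the type II cluster. In the type II cluster the interior was itself dense (5.47 per 100 kb). On chromosome 16 the edge zones held 5 peaks (2.50 per 100 kb), not above the genome's 2.56, and the interior was sparse (0.81). In the Krtap5 cluster the ratio was 2.40, but its interior is 30.1 kb with 1 peak. The Krtap10/12 cluster has an interior of 16.7 kb with 0 peaks and gave no ratio. In 8 of the 10 zones there were 5 or more peaks, a number reached by 20.3% of all 100 kb bins of the genome. The exceptions were the 2 ends of the chromosome 16 cluster, with 4 peaks at the Krtap24-1 end and 1 at the Krtap11-1 end. The upper set of replicate 1 also had 5 or more peaks in 8 zones, and that of replicate 2 in 6, with 4 at the left end of the Krtap5 cluster and 3 at the left end of the Krtap10/12 cluster.

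**Figure D5:**
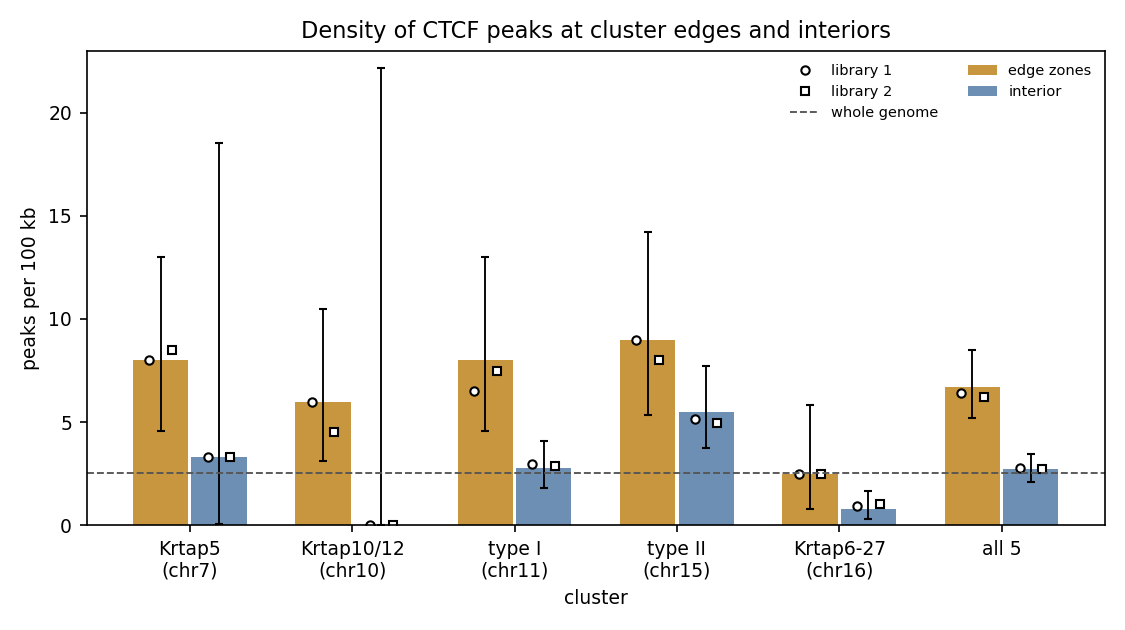
Optimal CTCF peaks per 100 kb in the edge zones and interiors of the 5 clusters and of all together, with exact Poisson 95% intervals (counting error only). White circles and squares give the upper sets of libraries 1 and 2, and the dashed line the whole genome (2.56). Edge bars are taller than interior bars in each cluster, while the intervals overlap in each single cluster except the type I cluster.

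The strongest peak of any window stood just beyond the type I cluster. Its summit at chr11:100295531 was 25.7 kb past Krt42, at percentile 99.96 of the optimal list and ranked 14 and 40 in the 2 library lists. It belonged to a group of 7 peaks between 12.3 and 30.6 kb past Krt42, of which 2 others exceeded percentile 95 (97.0 and 96.4). The next protein-coding gene on that side, Eif1, which encodes a translation initiation factor, lies 50.01 kb past Krt42. The left end at Krt222 had no comparable peak, the highest there reaching percentile 83.9, and Smarce1, a chromatin remodelling subunit gene, lies 1.74 kb from it.

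The type II cluster had strong peaks on both flanks. To the left of Krt80, 3 peaks within 31.5 kb stood at percentiles 96.1, 97.4 and 96.4. To the right, a peak 33.8 kb past the end of Krt18, before Eif4b, stood at percentile 99.7 (ranks 353 and 154). Inside the cluster the strongest peak (chr15:101973870, percentile 99.4) lay between Krt78 and Krt8, and a further one at percentile 97.9 lay 16.2 kb from the Krt8 TSS. Krt8 and Krt18, the pair used by simple epithelia, thus lie between the peaks at percentile 97.9 and 99.7. The same interval held the Krt8 promoter peak, a peak at percentile 67.3 between Krt8 and Krt18, and a weak peak past Krt18 at percentile 10.9.

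The Krtap clusters ended differently from one another. The Krtap5 cluster had its strongest peak on the right flank, in an intron of Ifitm10, at percentile 99.1 (ranks 1687 and 435). The Krtap10/12 genes lie within or beside Tspear, and none of the 12 peaks there exceeded percentile 58.2. On chromosome 16 the highest peak was inside the cluster, at percentile 82.7, and past the last gene, Krtap11-1, the next optimal peak was 195 kb away, in front of Tiam1. Over all clusters, 10 of 67 edge peaks and 5 of 66 interior peaks exceeded percentile 90, as 10% of all optimal peaks do by definition. The median percentiles of edge and interior peaks were 56.6 and 54.4.

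Within the type I cluster the Krtap genes occupied the sparse part. The block of 12 Krt genes from Krt222 to Krt40 had 17 peaks in 310 kb (5.48 per 100 kb, Poisson interval 3.19 to 8.77). The block of 23 Krtap genes from Krtap3-3 to Krtap17-1 had 4 in 444 kb (0.901, interval 0.246 to 2.31), and the Krt block from Krt33a to Krt42 had 8 in 259 kb (3.09, interval 1.34 to 6.09). The Krtap block held 4 and 3 peaks in the upper sets of replicates 1 and 2.

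The longest stretches without an optimal peak fell among the Krtap genes, though not every Krtap cluster had a long one. The longest, 482 kb on chromosome 16, contained 7 members from Krtap6-5 to Krtap7-1, which include glycine- and tyrosine-rich hair proteins, and 0.756% of the intervals between neighbouring optimal peaks in the genome were as long. It was not empty in the libraries, with 1 upper-set peak in each and 17 and 26 peaks in the whole lists. The stretch around Krtap11-1 measured 241 kb (2.29% of intervals as long). In the type I cluster 190 kb with 5 members from Krtap4-6 to Krtap4-16 had no peak, and in the type II cluster 116 kb with Krt6b and Krt6a. The type II stretch, in a cluster without Krtap genes, held 1 upper-set peak in each library. The longest stretches in the Krtap5 and Krtap10/12 clusters were shorter, at 80.0 and 62.0 kb, the latter without a member inside.

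Most peaks of the windows carried a CTCF motif match. A match within 100 bp of the summit was found for 97 of 133 peaks (72.9%, Wilson interval 64.8 to 79.8%), against 61.1% of all optimal peaks, with a matrix learned outside soft-masked sequence. With a matrix learned from all sequence the shares were 48.1% and 47.0%, so the excess over the background depended on the matrix. Both matrices were learned from peaks on odd-numbered chromosomes, which include the windows on chromosomes 7, 11 and 15. The windows on chromosomes 10 and 16, with 12 peaks each, had a match at 58.3% and 83.3% of peaks with the first matrix. Edge zones had a match at 79.1% of peaks and interiors at 66.7%. The soft-masked class, sequence marked as repetitive, held 22 of the 133 summits, 13 of them in the type I window, against 22.0% of all optimal summits.

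Matches at the 2 ends of the clusters differed in direction. At left ends 17 ran forward and 10 reverse, and at right ends 6 ran forward and 20 reverse, so that matches pointing into the cluster were the more frequent at both. In the interiors 21 ran forward and 23 reverse, and 49.8% of all matches in optimal peaks ran forward. The type I cluster gave 6 forward and 1 reverse on the left and 2 forward and 6 reverse on the right. The excess of forward matches on the left was largest in that cluster. Left ends had 3 forward and 1 reverse in the Krtap5 cluster. They were near balance in the type II cluster (4 forward, 3 reverse) and the Krtap10/12 cluster (3 forward, 2 reverse). The chromosome 16 cluster went the other way on the left, with 1 forward and 3 reverse. In the type I cluster most of the left forward matches lay at soft-masked summits. The directions were not recounted without such summits or with the matrix learned from all sequence. With the stricter match score, left ends had 5 forward and 3 reverse matches and right ends 3 forward and 7 reverse, while the interiors had 7 forward and 2 reverse.

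The Krtap5 cluster held a duplicated site. The peaks at chr7:142279500 and chr7:142295594 carry the identical 29 bases around their matches, and the longest run shared by the surrounding sequence was 49 bp. They stood at percentiles 29.6 and 52.4 and were present in the upper sets of both libraries. The pair was chosen after the sequences were seen, and the part that reads matching both places play in them was not tested.

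Lists of genes with related functions elsewhere in the genome differed in their share of promoter peaks. Of 16 other intermediate filament genes, 10 had a promoter peak, the strongest at Gfap (percentile 98.4), Synm (98.3), Lmna (95) and Nes (82.2), which encode filament proteins of glia, muscle, the nuclear lamina and neural progenitors. Of 20 genes for desmosomes and filament linkers, 9 had one, led by Tchp, Plec, Fam83h and Dst (percentiles 88.8, 86.9, 85.1 and 78.6). Plec and Dst encode plakin linkers that tie filaments to junctions. Of 12 regulators of hair follicle development, 3 had one, at Gata3, Klf4 and Hoxc13 (percentiles 68.2, 56.4 and 11.7). The upper set of replicate 2 had none at Hoxc13. None of 18 cornified envelope genes had one, a list whose members all lie in the lowest 3 CpG deciles. In the order given the shares were 62.5, 45, 25 and 0%, and the background is 39.4%, as above. That background lies inside the 95% Wilson intervals of the first 3 lists (38.6 to 81.5%, 25.8 to 65.8% and 8.89 to 53.2%). It lies above the interval of the cornified envelope list (0 to 17.6%).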

How the data were processed

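The authors deposited 5 narrowPeak lists on mm10: 1 for each library, 1 pooled, and the conservative and optimal lists, per the labels and deposited notes. The aligner, the peak caller and its filters were not given in the sources used here. Signal values, as deposited, served to rank peaks inside 1 list and were never compared between lists, because depth sets their scale. The deposited summit offset gave each summit.

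Genes and TSSs are those of GENCODE M21 on chromosomes 1 to 19 and X, and sequence is GRCm38.p6, the same assembly, in which all peak and gene ends lay. The 19-base CTCF matrix was learned from optimal peaks on odd-numbered chromosomes, and a match passed the score reached at 1 in 10000 positions 2 kb away. Named genes were the members with a promoter peak, a list of well-known keratins, cluster ends and their neighbours, the strongest and nearest peaks, the longest peak-free stretches and up to 4 genes of each related list. Exon 7 and the duplicated site were chosen after their values were seen. A sequence comparison is not reported here. Members and lists were chosen with earlier results of these data known. Scripts ran in Python 3.11.15 with scipy 1.17.1, pandas 2.3.3 and numpy 2.4.6. Promoter assignment, zone counts and motif scanning were tested on simulated data. Alternatives are in the closing section.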

Additional observations from a re-analysis of the deposited data

How the results depend on the processing

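The number of Krt genes with a promoter peak was 4, and it was 1 with the 50% of optimal peaks of highest signal, 2 with the gene's 5′ end only, and 4 to 5 with either library left out. The number of Krtap genes was 0 and became 3 with promoters of 2500 bp on each side (Krtap14, Krtap4-6 and Krtap5-1), where the share over all genes was 49.9%. The ratio of edge to interior density, 2.47, was above 1 in each alternative run. It was 2.13 with the conservative list, 2.50 with the 50% of peaks of highest signal, 2.54 without peaks near a higher one, 1.83 and 2.69 with edge zones of 25 and 100 kb, and 2.26 for the flanks against the whole span. It was 2.28 to 2.32 with either library left out. In alternatives chosen after seeing the data, it was 2.38 with the 3 clusters over 500 kb only, 2.14 without soft-masked summits and 3.27 without coding-exon peaks. The window count of 133 was 73 with the 50% of peaks of highest signal, falling from 12 to 2 in the Krtap10/12 window, 42 to 26 in the type I window and 50 to 25 in the type II window. With the spans alone, the Krtap5 count went from 17 to 9 and the Krtap10/12 count from 12 to 6. The total was 96 with the spans alone and 170 with 100 kb on each side. The share of window peaks with a match, 72.9%, was 20.3% with a score passed by 1 in 100000 control positions (14.6% of all peaks) and 48.1% with the matrix from all sequence. The total of 22 related genes stayed within 1.5 times in the alternatives run, but single lists moved: other intermediate filament genes from 10 to 6 with promoters of 500 bp on each side, and, with 2500 bp, hair follicle regulators from 3 to 5 and cornified envelope genes from 0 to 3. No paired analysis was possible because the 2 libraries are 1 group. The lists hold no read counts, so weak or absent peaks could not be set against depth, and a gene without a peak is one without a listed summit.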
